A study of Mus musculus with 20 samples.

Results

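Neuropeptide Y (Npy) and its receptors were described over all arrays of 2 mouse hypothalamic cell lines exposed to serotonin. The members are 4 genes of the 18820 tested: Npy, Npy1r, Npy2r and Npy5r. They were taken by symbol as the probe sets of the array that carry that single symbol. Each member had 1 such probe set: 10538247 for Npy, 10572070 for Npy1r, 10498965 for Npy2r and 10578973 for Npy5r.

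The series holds 20 arrays of total RNA in 5 groups of 4. For mHypoE-46 (E46 below), a line the labels call sensitive to serotonin, there were controls and cells given serotonin labelled 1 µg/ml or labelled 100 µg/ml. For mHypoA-2/12 (A2/12 below), called unresponsive, there were cells given serotonin labelled 100 µg/ml and controls. All groups, controls included, had been moved at near confluence to medium without serum before the 24 h exposure. E46 is a clonal line immortalised from embryonic mouse hypothalamus and A2/12 one from adult mouse hypothalamus, so each stands for 1 clone. The stated interest was the effect of serotonin on the messenger RNA and the release of Npy. Doses follow the titles here. The description of each E46 serotonin array contradicts its title, since it names 1 where the title has 100 and the reverse.

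Npy is a peptide that neurons of the arcuate nucleus release to stimulate feeding. It acts on a family of receptors that couple to inhibitory G proteins and lower cyclic AMP. In the hypothalamus the Y1 receptor (Npy1r) and the Y5 receptor (Npy5r) carry much of the effect on feeding, while the Y2 receptor (Npy2r) sits largely on the endings of Npy neurons and restrains release.

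The 250 bases before the annotated start were read for all 4 members from RefSeq (GRCm38.p6), each on the strand of its gene. The results below turn on Npy, the peptide the study set out to follow, on Npy1r, whose level changed, and on Npy5r, which lies head to head with Npy1r. Their windows are shown for that reason. The window of Npy lies at chr6:49822460-49822709 on the plus strand. That of Npy1r lies at chr8:66697172-66697421 on the plus strand. That of Npy5r lies at chr8:66688095-66688344 on the minus strand. The capitals in Npy5r mark the letters CACGTG of an E-box.
Npy: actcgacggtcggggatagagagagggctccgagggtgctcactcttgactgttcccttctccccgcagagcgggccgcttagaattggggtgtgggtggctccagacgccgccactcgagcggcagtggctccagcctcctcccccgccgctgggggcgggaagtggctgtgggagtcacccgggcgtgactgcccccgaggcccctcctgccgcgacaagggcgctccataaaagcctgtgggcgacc
Npy1r: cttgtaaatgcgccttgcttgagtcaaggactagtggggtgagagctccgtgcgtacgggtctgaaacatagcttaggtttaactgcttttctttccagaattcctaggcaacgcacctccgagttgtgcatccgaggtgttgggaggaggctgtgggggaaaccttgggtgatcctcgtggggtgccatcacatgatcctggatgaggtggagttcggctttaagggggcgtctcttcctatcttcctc
Npy5r: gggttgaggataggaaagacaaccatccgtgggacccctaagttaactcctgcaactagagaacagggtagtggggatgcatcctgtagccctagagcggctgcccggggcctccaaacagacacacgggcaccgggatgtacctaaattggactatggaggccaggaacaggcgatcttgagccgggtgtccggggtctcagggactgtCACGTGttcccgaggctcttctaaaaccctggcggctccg
The GC content of the window was 69.2% for Npy, 53.6% for Npy1r, 56.8% for Npy2r and 58.8% for Npy5r. On both strands of each window 5 motifs were searched by their exact letters. The cyclic AMP response element TGACGTCA is in 1.55% of 32851 mouse windows of this length and its shorter core TGACG, which the full element contains, in 17.8%. The ATF4 element TGATGNAAN is in 3.44%, the TATA box TATAAA in 12.4% and the E-box CACGTG in 6.02%. Among the members the single match was the E-box of Npy5r, 40 bases before the start. The other letters are not in these windows, from which nothing follows about the factors.

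Levels are log2 values, and the levels of different probe sets cannot be set against each other. To judge whether a gene was measured above background, its group mean was compared with a limit below which 95% of 1157 receptor genes for odours and pheromones lay in the same group. That limit was 4.38 in E46 controls, 4.66 in E46 at the labelled 1, 4.45 in E46 at the labelled 100, 4.35 in A2/12 at the labelled 100 and 4.36 in A2/12 controls. Group values are means ± SD over 4 arrays and changes are differences of log2 means ± SE between such groups. Calls are limma's at an adjusted p under 0.05 over all genes. No label tells separate cultures from repeats of 1 culture, so the p-values measure the spread between arrays, which may be technical.

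Of the 4 members, Npy1r was clearly measured in both lines. Npy lay at the edge of the background, and Npy2r and Npy5r lay below it in every array. The plot of levels by array shows the members on 1 axis.

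**Figure D1:**
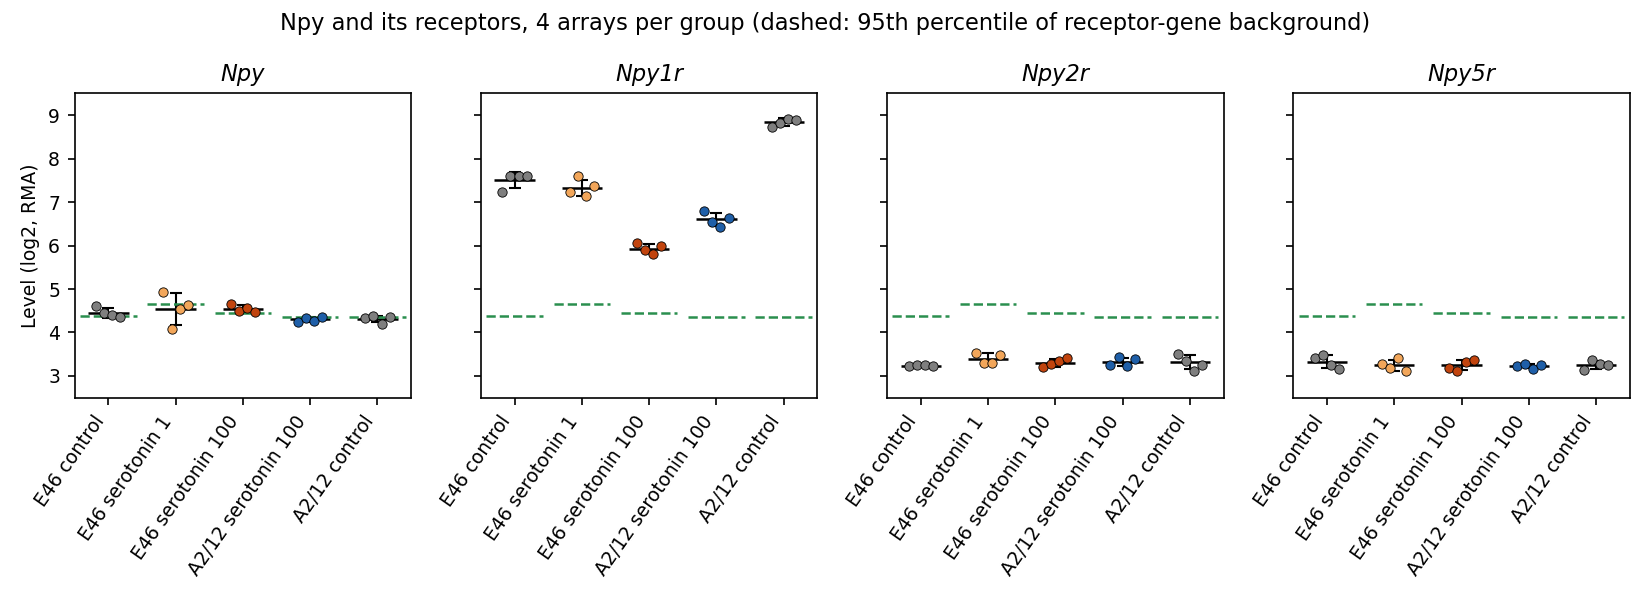
Level (log2, RMA values) of Npy, Npy1r, Npy2r and Npy5r in each of the 20 arrays. Points are arrays, black bars the mean ± SD of 4 arrays, and the dashed green line of each group the 95th percentile of the receptor genes. Npy1r stands above the line in every array, Npy lies at it, and Npy2r and Npy5r lie below it.

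Npy, the peptide, read 4.6, 4.44, 4.40 and 4.35 in E46 controls. It read 4.93, 4.07, 4.53 and 4.63 in E46 at the labelled 1 and 4.65, 4.50, 4.56 and 4.48 in E46 at the labelled 100. The E46 groups overlapped, and the highest and the lowest of all arrays both belonged to the labelled 1. In A2/12 it read 4.23, 4.34, 4.27 and 4.36 at the labelled 100 and 4.33, 4.38, 4.2 and 4.35 in controls. Those groups overlapped almost wholly.

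The mean of Npy was 4.45 ± 0.11 in E46 controls, 4.54 ± 0.36 at the labelled 1 and 4.55 ± 0.08 at the labelled 100. It was 4.30 ± 0.06 in A2/12 at the labelled 100 and 4.31 ± 0.08 in A2/12 controls. Npy was above the background limit in 2 of the 5 groups, by 0.09 in E46 at the labelled 100 and by 0.07 in E46 controls. Between 92.3% and 96.3% of the receptor genes lay lower than Npy in a group. The array at 4.93 had a limit of its own of 5.36, the highest of the 20 arrays, so this reading was below background too.

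No comparison called Npy. Its change at the labelled 100 against controls was 0.10 ± 0.12 in E46 (95% interval -0.15 to 0.35, limma adjusted p = 0.577) and -0.02 ± 0.12 in A2/12 (-0.26 to 0.23, adjusted p = 0.936). At the labelled 1 in E46 it was 0.10 ± 0.12 (-0.15 to 0.34, adjusted p = 0.705). The difference of both responses, E46 minus A2/12, was 0.12 ± 0.17 (-0.23 to 0.46, adjusted p = 0.704), and E46 controls differed from A2/12 controls by 0.13 ± 0.12 (adjusted p = 0.43). These intervals hold for the probe set's reading, and so near the background a change of the messenger RNA is compressed toward 0.

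Npy1r, the Y1 receptor, fell at serotonin labelled 100 in both lines. It read 7.24, 7.60, 7.60 and 7.61 in E46 controls. With the labelled 1 it read 7.24, 7.59, 7.15 and 7.37, and at the labelled 100 it read 6.05, 5.89, 5.8 and 5.99. The arrays at the labelled 100 all lay below the other E46 arrays, with a gap of 1.18 to the lowest control, while the labelled 1 overlapped the controls. In A2/12 it read 6.80, 6.54, 6.42 and 6.64 at the labelled 100, against 8.73, 8.81, 8.92 and 8.89 in controls. The gap between those groups was 1.93.

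In E46 the level of Npy1r was 5.93 ± 0.11 at the labelled 100 and 7.51 ± 0.18 in controls. The change was -1.58 ± 0.10 (95% interval -1.80 to -1.36, limma adjusted p = 1.43e-10), or 2.98-fold lower. In bulk RNA, fewer cells that express a gene and less of its RNA per cell cannot be told apart. Of all genes, 39.6% were called in this comparison and 19.3% were called lower, and 19.4% had all serotonin arrays below all controls. Npy1r was 1 of 4 members called, and 1.5% of genes had a more negative change than it. By the descriptions this would be the response to 1 µg/ml.

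The E46 level at the labelled 1 was 7.33 ± 0.19, and the change from controls of -0.18 ± 0.10 was not called (95% interval -0.40 to 0.04, limma adjusted p = 0.401). In that comparison 0.0106% of genes were called, which is 2 genes, while 2993 had an unadjusted p below 0.05. Between the doses, Npy1r was lower at the labelled 100 than at the labelled 1 by a change of -1.40 ± 0.10 (adjusted p = 8.70e-10), where 41.4% of genes were called and 17.8% called lower, and 16.8% had groups that did not overlap in that direction. With the doses of the descriptions this last sign turns round.

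In A2/12 the level was 6.60 ± 0.16 at the labelled 100 and 8.84 ± 0.09 in controls. The change was -2.23 ± 0.10 (95% interval -2.45 to -2.02, limma adjusted p = 3.28e-13), or 4.71-fold lower. Here 45.9% of genes were called and 21.1% called lower. In 19.9% all serotonin arrays lay below all controls, and 1.37% of genes had a more negative change. This is the line labelled unresponsive to serotonin.

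The fall was larger in A2/12 than in E46. The difference of the responses, E46 minus A2/12, was 0.66 ± 0.15 (95% interval 0.35 to 0.97, limma adjusted p = 0.00221), with 22.0% of genes called and 11.1% called in the same direction. It compares like doses by the titles. By the descriptions the like-dose difference was 2.06 ± 0.15 (adjusted p = 6.84e-10), in the same direction. Without serotonin, Npy1r was lower in E46 controls than in A2/12 controls by a change of -1.32 ± 0.10 (adjusted p = 1.13e-09), or 2.5-fold, where 39.1% of genes were called, 18.1% were called lower and 17.1% had all E46 arrays below all A2/12 arrays. The exact permutation test on Npy1r alone gave a two-sided p of 0.0286 for each pair of groups that did not overlap, which is the smallest that 4 arrays against 4 allow.

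**Figure D2:**
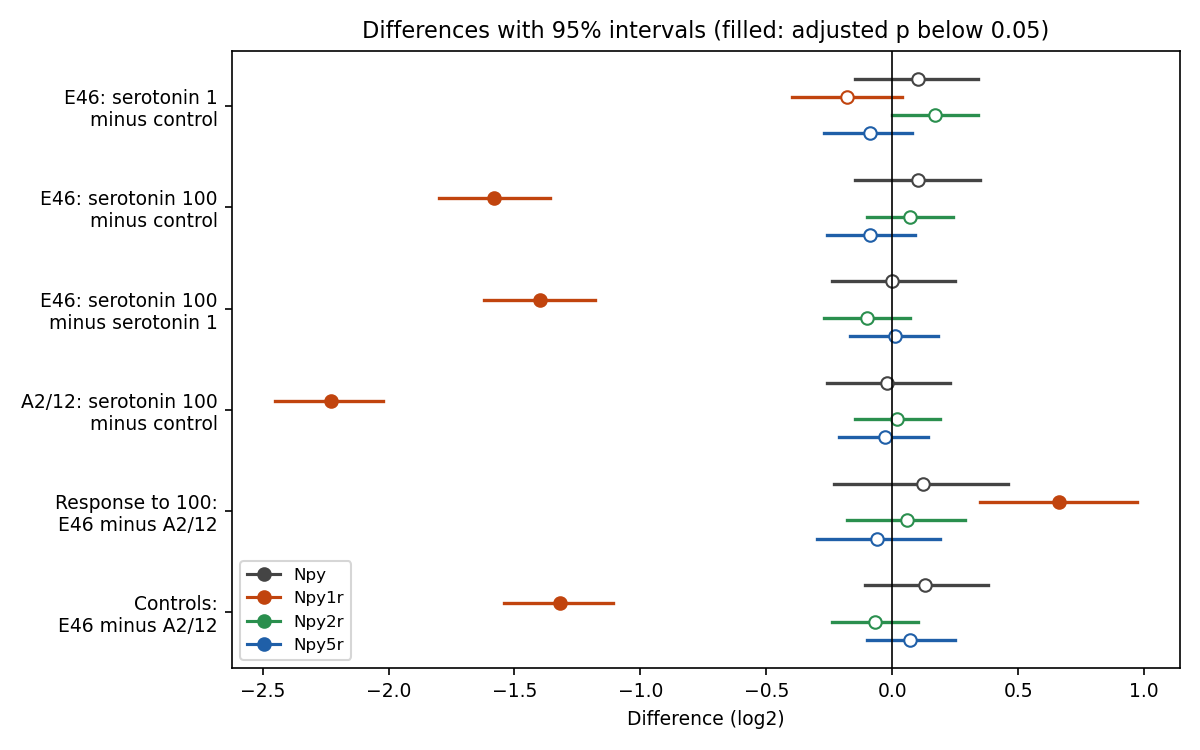
Difference (log2) of Npy, Npy1r, Npy2r and Npy5r in 6 comparisons, with 95% intervals; filled points have an adjusted p below 0.05. Npy1r stands apart from 0 in 5 of them and at -0.18 in E46 at the labelled 1, while the other members lie between -0.10 and 0.17.

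Ordered by level, Npy1r was highest in A2/12 controls, then in E46 controls, E46 at the labelled 1, A2/12 at the labelled 100 and E46 at the labelled 100. E46 controls and E46 at the labelled 1 overlapped and did not differ beyond their spread. The other neighbours in this order did not overlap. In the lowest group, at 5.93, Npy1r still stood 1.48 above its background limit, with 99.7% of the receptor genes lower, so its fall did not end in the background.

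Among all genes, 12.8% were called lower at the labelled 100 in both lines and 1.03% (193 genes) fell by at least 1.5 in both. Npy1r is one of these 193. The plot of both responses places it among genes lower in both lines, above the line of equal changes.

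**Figure D3:**
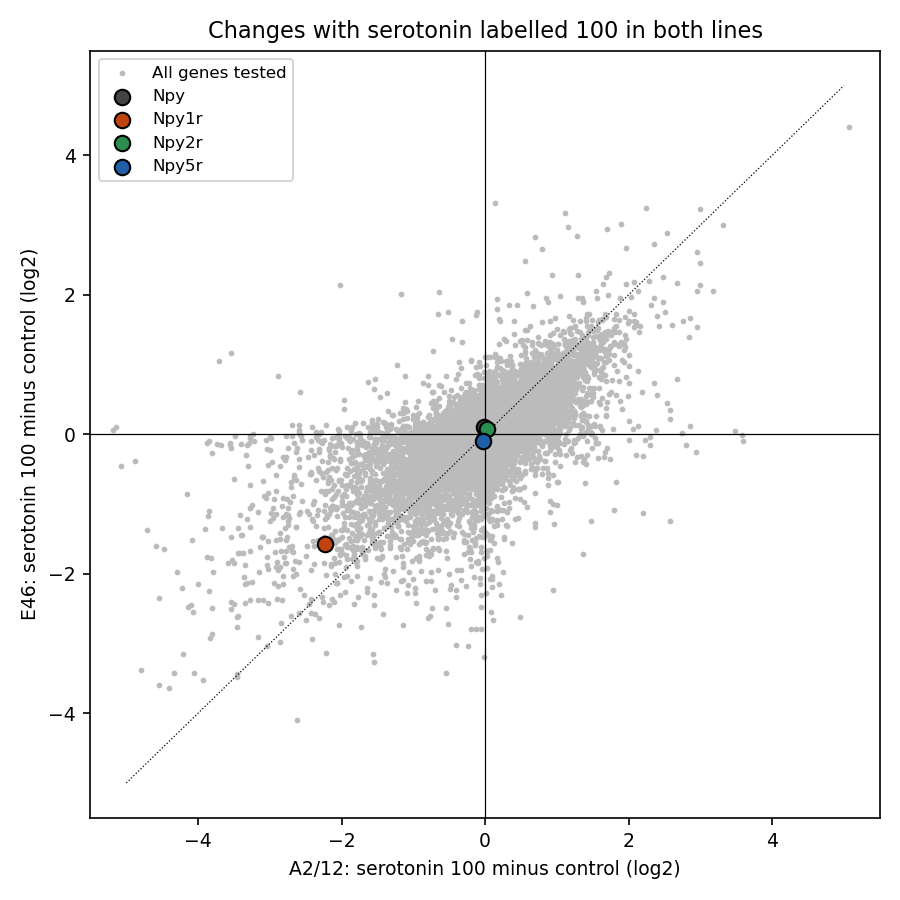
Change (log2) at serotonin labelled 100 against controls in E46 (vertical) and A2/12 (horizontal) for all 18820 genes (grey) and the 4 members (coloured); the dotted line marks equal changes. Npy1r lies at -1.58 and -2.23, above the dotted line at lower left, and the other members lie near 0.

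Npy2r, the receptor that restrains Npy release, read 3.20, 3.27, 3.34 and 3.41 in E46 at the labelled 100 and 3.22, 3.25, 3.25 and 3.22 in E46 controls. At the labelled 1 it read 3.52, 3.30, 3.30 and 3.48, which lay above the controls by a gap of 0.05. All of these readings were below background. The groups of A2/12 overlapped, with 3.25, 3.43, 3.23 and 3.39 at the labelled 100 and 3.50, 3.35, 3.12 and 3.26 in controls.

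The change of Npy2r was 0.07 ± 0.08 in E46 at the labelled 100 (limma adjusted p = 0.561) and 0.02 ± 0.08 in A2/12 (adjusted p = 0.911). With the labelled 1 it was 0.17 ± 0.08 (adjusted p = 0.319). There the exact permutation test on this gene alone gave p = 0.0286, while 1.64% of all genes had the labelled 1 arrays wholly above the controls. Between 32.2% and 53.1% of the receptor genes lay lower than Npy2r in a group, so the probe set reads like a typical gene of the background.

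Npy5r, the Y5 receptor, ranged from 3.11 to 3.49 over all 20 arrays. In E46 it read 3.19, 3.12, 3.31 and 3.37 at the labelled 100 and 3.42, 3.49, 3.26 and 3.16 in controls, which overlapped. In A2/12 it read 3.22, 3.27, 3.16 and 3.26 at the labelled 100 and 3.14, 3.37, 3.28 and 3.25 in controls, which overlapped too. Its changes of -0.09 ± 0.08 in E46 (limma adjusted p = 0.472) and -0.03 ± 0.08 in A2/12 (adjusted p = 0.815) were not called. Between 22.4% and 49.2% of the receptor genes lay lower in a group, so a Y5 transcript was not detectable above this background.

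The other 4 genes of the family were Pyy, the gut peptide YY, Ppy, the pancreatic polypeptide of islet cells, and the receptors Npy4r and Npy6r. Both receptors lay below background in every array and were not called. Pyy lay above background in all groups and was not called. Ppy read 5.32 ± 0.09 in E46 at the labelled 100 and 5.6 ± 0.02 in E46 controls, a change of -0.28 ± 0.07 (limma adjusted p = 0.00356) that was not called after median centring or quantile normalization. In A2/12 it read 5.53 ± 0.08 at the labelled 100 and 5.34 ± 0.08 in controls, a change of 0.19 ± 0.07 (adjusted p = 0.0351) that lost its call without control replicate 2 or 4 or serotonin replicate 3 or 4. Blocking on position (0.17), fitting A2/12 on its own and an intensity trend in eBayes each ended the call too. The difference of the responses was -0.47 ± 0.10 (adjusted p = 0.00168). Over the 8 family genes the median change was -0.06 in E46 and -0.02 in A2/12, against 0.00 over all genes in both lines.

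Enzymes that cut the Npy precursor to the active peptide, and others that break the peptide down, were measured as a list of 8 genes, 7 of which had a probe set. In E46 at the labelled 100, 4 of 7 fell and 0 rose, where 19.3% of all genes were called lower. They were Scg5 (-0.38 ± 0.08), a chaperone of the prohormone convertase, Cpe (-0.58 ± 0.07), which trims the cut ends, Pam (-0.90 ± 0.07), which amidates the C-terminus, and Mme (-1.51 ± 0.27), neprilysin, a protease that degrades Npy. The call of Scg5 was lost after median centring or quantile normalization. In A2/12, where 21.1% of all genes were called lower, 3 of 7 fell and 0 rose: Cpe (-0.70 ± 0.07), Pam (-1.68 ± 0.07) and Mme (-4.09 ± 0.27). The convertase Pcsk1 was not called in either line, nor was Dpp4, which removes the first residues of Npy. Both lay below background in every group, so a change in them could hardly be read. Pcsk1n lay above background in every group and was not called, with changes of -0.05 ± 0.08 in E46 and -0.07 ± 0.08 in A2/12. Scg5, above background too, was not called in A2/12 (-0.16 ± 0.08, limma adjusted p = 0.108). The list's median was -0.38 in E46 and -0.20 in A2/12.

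Of 27 listed genes of the signalling that Y receptors use, 24 were measured. In E46 at the labelled 100, 8 fell and 1 rose, and in A2/12 12 fell and 1 rose, where 21.1% of all genes were called lower and 24.8% higher in A2/12 (19.3% and 20.3% in E46). The G protein subunits that fell in both lines were Gnai2 (-0.64 ± 0.06 in E46 and -0.64 ± 0.06 in A2/12), Gnao1 (-0.93 ± 0.07 and -2.13 ± 0.07), Gnaz (-0.59 ± 0.12 and -0.39 ± 0.12) and Gnb2 (-0.26 ± 0.09 and -0.34 ± 0.09). For Gnai1 the change was -0.21 ± 0.11 in E46, not called (limma adjusted p = 0.141), and -2.32 ± 0.11 in A2/12. The call of Gnb2 in E46 was lost without control replicate 4 or without serotonin 100 replicate 2, and in both lines after median centring. Quantile normalization ended the call of Gnb2 in E46 and that of Gnaz in A2/12.

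Arrestins end receptor signalling at the membrane, and the 2 listed ones went opposite ways. Arrb1 fell in both lines, with changes of -1.70 ± 0.12 in E46 and -3.45 ± 0.12 in A2/12. Arrb2 rose, by 0.28 ± 0.09 in E46 and 0.49 ± 0.09 in A2/12, with the E46 call lost without control replicate 3 or serotonin 100 replicate 3. Adenylyl cyclases make cyclic AMP. Adcy7 fell in both lines, with changes of -0.39 ± 0.13 in E46 and -1.47 ± 0.13 in A2/12. Its call in E46 was lost without replicate 2 or 3 of either group and after quantile normalization. Adcy9 was at -0.11 ± 0.12 in E46, not called, and fell in A2/12, with a change of -1.02 ± 0.12.

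The response differed between the lines for 6 of the 24 signalling genes, each with a larger fall in A2/12, where 11.1% of all genes were called in that direction. The difference, E46 minus A2/12, was 1.75 ± 0.17 for Arrb1 and 1.21 ± 0.10 for Gnao1. For Gnai1 it was 2.11 ± 0.15, but Gnai1 lay at the background in E46, at 4.25 ± 0.14 with the labelled 100 and 4.46 ± 0.15 in controls, where a fall could hardly be read. In A2/12 it lay at 7.26 ± 0.19 and 9.58 ± 0.11. The difference was 1.08 ± 0.18 for Adcy7, 0.91 ± 0.17 for Adcy9 and 0.35 ± 0.10 for Prkacb, a catalytic subunit of protein kinase A. Adcy7 too lay low in E46, at 4.84 ± 0.16 with the labelled 100 and 5.23 ± 0.20 in controls. The background limit at the labelled 100 was 4.45, and folds so near it appear compressed. The list's median change was -0.14 in E46 and -0.21 in A2/12.

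**Figure D4:**
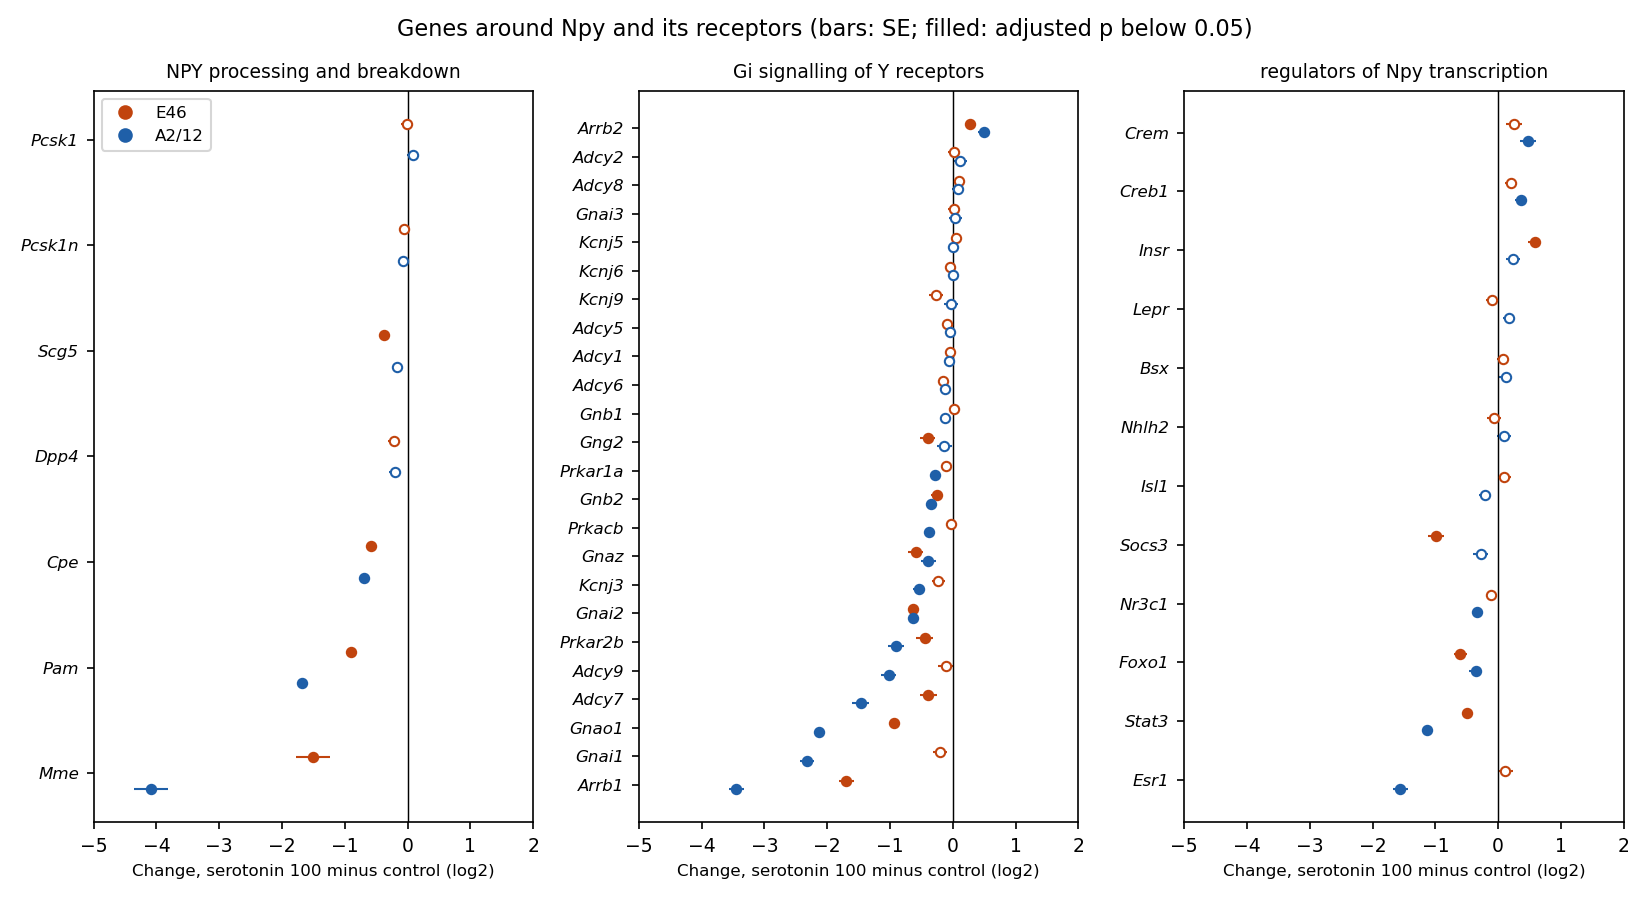
Change (log2, ± SE) at serotonin labelled 100 against controls in E46 (red) and A2/12 (blue) for genes that process or break down Npy, that carry Y receptor signals and that regulate Npy transcription; filled points have an adjusted p below 0.05. Mme and Arrb1 have the most negative changes of their panels in both lines.

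Among 12 regulators of Npy transcription, 3 fell and 1 rose in E46, where 19.3% of all genes were called lower and 20.3% higher. In A2/12 4 fell and 2 rose, where 21.1% of all genes were called lower and 24.8% higher. Counts this small do not set the list apart from all genes. Foxo1, a target of insulin and leptin signalling that activates Npy, fell in both lines, with changes of -0.60 ± 0.10 in E46 and -0.36 ± 0.10 in A2/12. Stat3, the factor that leptin activates, fell too, with changes of -0.50 ± 0.08 in E46 and -1.14 ± 0.08 in A2/12. In E46 Socs3, an inhibitor of leptin signalling, fell (-0.99 ± 0.12) and the insulin receptor Insr rose by 0.58 ± 0.11. In A2/12 the oestrogen receptor Esr1 (-1.56 ± 0.12) and the glucocorticoid receptor Nr3c1 (-0.33 ± 0.09) fell, and Creb1 (0.36 ± 0.09) and Crem (0.48 ± 0.13), which bind cyclic AMP response elements, rose. Esr1 ended at its background limit, at 4.35 ± 0.10 with serotonin and 5.91 ± 0.28 in A2/12 controls, and lay below background in E46. The call of Nr3c1 was lost after median centring. The medians were 0.01 in E46 and -0.06 in A2/12.

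Genes that accompany Npy in arcuate circuits were not called in either response, with 0 of 11 measured in each. Of all genes, 39.6% were called in E46 at the labelled 100 and 45.9% in A2/12. The 11 included the peptides Pomc, Cartpt and Sst, the ghrelin receptor Ghsr and the melanocortin receptors Mc3r and Mc4r. Of the 11, 5 lay above background in each group (Cartpt, Ghsr, Mc4r, Sst and Otp), and Pomc did not. Agrp, which Npy neurons release together with Npy, had no probe set with a single symbol and was not analysed here. At the labelled 1 in E46, 0 genes of any of these lists were called. There 0.0106% of all genes were called, so this count does not set the lists apart.

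By order along chromosome 8, Npy5r and Npy1r are next to each other and start in opposite directions. Tktl2, a transketolase-like gene, follows Npy5r and lay below background, uncalled. The next measured genes on either side rose, where 20.3% of all genes were called higher in E46 and 24.8% in A2/12. Tma16, known in yeast as a factor of ribosome assembly, lies beyond Tktl2 and rose by 1.89 ± 0.13 in E46 and 2.48 ± 0.13 in A2/12 at the labelled 100. Naf1, which helps assemble small nucleolar and telomerase RNA particles, lies beyond Npy1r and a pseudogene and rose by 1.27 ± 0.06 in E46 and 1.46 ± 0.06 in A2/12. Next to Npy2r on chromosome 3, Map9, a microtubule-associated gene, rose by 0.73 ± 0.18 in E46 and 0.99 ± 0.18 in A2/12. The 4 nearest annotated genes of Npy, on chromosome 6, had no single-symbol probe set.

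Over the 20 arrays and among 12714 genes above background in any group, the genes most like Npy1r were Plscr4 (r = 0.991), a phospholipid scramblase, Capn6 (r = 0.991), a calpain, the large cadherin Fat4 (r = 0.989), Itgbl1 (r = 0.987) and the adhesion protein Flrt3 (r = 0.986). Each of them fell in both lines, with changes for Plscr4 of -1.35 ± 0.08 in E46 and -1.75 ± 0.08 in A2/12 and for Fat4 of -2.62 ± 0.14 and -3.46 ± 0.14. The lowest correlations were those of Esd (r = -0.979), Psmg2 (r = -0.975), Pinx1 (r = -0.974), Thoc5 (r = -0.973) and Mgme1 (r = -0.969), which rose in both lines. In all, 120 genes had an r above 0.95. The arrays share their 5 groups, so the differences between groups enter every r. For Npy the highest was Gkn1 (r = 0.854) and the lowest Zfp799 (r = -0.843), and 0 genes passed 0.95. Gkn1, like Npy, read near the background limit, with group means from 4.37 to 4.64, so its r compares readings at the edge of the background.

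Markers of cell types were read in the same arrays, where 19.3% of all genes were called lower in E46 at the labelled 100 and 21.1% in A2/12. Of 11 measured neuron markers, 4 or 5 lay above background in a group, among them Map2 and Eno2, while Rbfox3, Snap25, Nefl, Nefm, Elavl4 and Dcx lay above it in none. Most mesenchymal markers were lower at the labelled 100, as Npy1r was: 6 of 7 fell in E46 and 5 of 7 in A2/12. All but Lum, 6 of 7, were above background in every group. Pdgfra did not fall in A2/12, at 9.89 ± 0.20 with the labelled 100 and 9.72 ± 0.23 in controls (limma adjusted p = 0.458). The mean level of the 7 mesenchymal markers per array was 7.17 to 7.86 in E46 at the labelled 100 and 8.86 to 8.99 in E46 controls. In A2/12 it was 7.74 to 8.36 at the labelled 100 and 10.17 to 10.33 in controls. Of 7 astrocyte markers, 5 fell in E46 and 4 in A2/12. In E46, 4 of 7 were above background at the labelled 100 and 5 in controls, and in A2/12 2 at the labelled 100 and 3 in controls. Slc1a3, a glutamate transporter, read 8.42 ± 0.17 in E46 at the labelled 100 and 10.24 ± 0.11 in E46 controls, and Fabp7, a lipid carrier, 4.56 ± 0.33 and 6.84 ± 0.03 in these groups. Gfap and Aqp4, which mark mature astrocytes, were below background in all groups. The mean level of the 7 per array was 4.89 to 4.98 in E46 at the labelled 100 and 5.85 to 5.94 in E46 controls, and 4.27 to 4.44 in A2/12 at the labelled 100 and 4.83 to 4.87 in A2/12 controls. Of the 11 neuron markers 2 fell in E46, a share near that over all genes, and 4 in A2/12. Microglia and oligodendrocyte markers had 0 calls in both responses. In A2/12 controls 3 of 6 microglia markers were above background, and the mean level of the 6 per array spread from 3.92 to 4.88. Of the 3, Csf1r (4.64 ± 1.25) and Ptprc (4.58 ± 0.58) passed the limit of 4.36 by less than their SD. Endothelium markers had 0 calls in E46, where 20.3% of all genes were called higher. In A2/12, where 24.8% of all genes were called higher, 2 of 4 rose, Cdh5 and Pecam1. Of these, Pecam1 lay below background in every group. The part of these markers in the result for Npy1r was not tested.

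The upper quartile of an array over genes lay between 8.547 and 8.632 in 4 arrays and at 8.703 or more in the others. The 4 were E46 control replicate 1, E46 serotonin 1 replicates 1 and 3, and A2/12 control replicate 2. Npy1r read lowest of its group in the first of these, and the arrays at the labelled 1 were the 2 lowest of theirs. Without the 4 arrays its change was -1.67 ± 0.09 in E46 at the labelled 100, -0.13 ± 0.11 at the labelled 1 and -2.24 ± 0.09 in A2/12, and the difference of the responses was 0.58 ± 0.13 (limma adjusted p = 0.00274). The array medians at the labelled 100 differed from those of controls by -0.12 in E46 and -0.16 in A2/12. Centring each array on its median, which removes these differences, gave -1.45 and -2.07. The labels also give a position number of 5, 7 or 9, which each group mixes. With it as a block the changes were -1.60 in E46 and -2.26 in A2/12, and within position 5, 7 and 9 alone they were -1.62, -1.58 and -1.71 in E46 and -2.39, -2.09 and -2.38 in A2/12. The difference of the responses was 0.66 with the block (adjusted p = 0.00353), and 0.77, 0.51 and 0.66 within each position. In each line 1 or both of the groups compared hold a single array at a given position, so the values within positions are given without a call.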

How the data were processed

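Total RNA of 20 arrays was measured on Affymetrix gene arrays. The deposited log2 values come from RMA, per the submitters' processing notes, with its version not given in the sources used. RMA subtracts background, equalises arrays and combines probes into sets. Without detection calls, folds near background appear compressed. Of 35556 probe sets, 21218 had a single symbol in the array annotation, 1881 several and 12457 none. Of 1386 genes with several sets the one with the highest mean was kept, which left 18820 genes.

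The limma package (3.58.1, R 4.3.3) estimated the mean of each group from all arrays together, leaving 15 residual degrees of freedom, followed by eBayes and Benjamini-Hochberg adjustment over all genes. Precision is limited by the number of arrays. The code was tested on simulated data. Groups and doses follow the titles. Named genes are the members, called genes of 5 pathway lists and those above background, the 5 most and least correlated genes, and 2 neighbours on each side. Members and lists were chosen with earlier results of these data known. Promoters are RefSeq's (GRCm38.p6), and all 4 members matched. Figures used matplotlib 3.10.9. Alternatives were a fit per line, other eBayes settings, array weights, blocks, normalizations, filters, backgrounds, doses of the descriptions and leaving out each array; one without 4 arrays was chosen after seeing the data.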

Additional observations from a re-analysis of the deposited data

Results flagged for a closer look

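In E46 controls, Npy1r read 7.24 in replicate 1, far below the other arrays of its group, with 0.968 of the group's range as the gap to the nearest one. Of 20 member and group pairs tested for a lone array this was the one found, and chance gives about 1 in 20. That array also has one of the 4 lowest upper quartiles (8.577). Without it the change of Npy1r was -1.67 at the labelled 100 and -0.27 at the labelled 1 in E46 (limma adjusted p = 0.241 at the labelled 1), the difference of the responses 0.57 (adjusted p = 0.00466) and the difference of E46 controls from A2/12 controls -1.23.

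The response of Npy1r to serotonin labelled 100 differed between the lines by the test of the difference itself, by 0.66 ± 0.15, E46 minus A2/12 (limma adjusted p = 0.00221). The fall was the smaller one in E46, the line labelled sensitive. Levels at the labelled 100 were 5.93 in E46 and 6.60 in A2/12, and those of controls 7.51 in E46 and 8.84 in A2/12. At the labelled 100 the level stood 1.48 above the background limit in E46 and 2.25 in A2/12.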

How the results depend on the processing

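The 24 member results were recomputed to give 608 alternative values, of which 601 kept their direction and their side of the threshold or were called in neither setting. Called alternatives numbered 0 of 155 for Npy, 123 of 155 for Npy1r, 0 of 149 for Npy2r and 0 of 149 for Npy5r. Without one array at a time Npy1r changed by -1.67 to -1.53 in E46 at the labelled 100, -0.27 to -0.11 at the labelled 1, -1.46 to -1.31 between the doses and -2.30 to -2.18 in A2/12, and the difference of the responses was 0.57 to 0.72. That difference was 0.77, 0.51 and 0.66 within position 5, 7 and 9 alone, not called, but each such fit compares groups of which some or all hold a single array, so the missing call says nothing about stability. With the doses of the descriptions, Npy1r changed by -0.18 at 100, by -1.58 at 1 and by 1.40 between the doses. The difference of its responses was 2.06 (0.66 with the titles). Values of called genes turned sign: for E46 at 100 Mme 0.07, Arrb2 -0.12, Insr -0.18, Naf1 -0.02, Tma16 -0.03, Map9 -0.05 and Esd -0.05, and for the difference Socs3 0.17. The difference for Insr turned from 0.34, not called with the titles (limma adjusted p = 0.129), to -0.41. For Npy2r at the labelled 1, 0.17 had an exact permutation p of 0.0286. Members above background numbered 1, against 2, in E46 controls and E46 at the labelled 100 with the 99th percentile, and 1 in E46 at the labelled 100 with a limit per array. With the 90th percentile they numbered 2, against 1, in E46 at the labelled 1, A2/12 at the labelled 100 and A2/12 controls. Genes called within positions 5, 7 and 9 alone numbered 3183, 3469 and 871 in E46 at the labelled 100 (7451 with all arrays), 2051, 5107 and 1371 between doses (7796), and 886, 1593 and 73 for the difference (4142). They numbered 4161 and 1864 in A2/12 (8645) at positions 5 and 9, and 3782, 3674 and 1292 between controls (7368). At the labelled 1 (2 genes) they numbered 0 to 1 in the other fits that moved the count, but 1 to 284 without one array, the 284 without E46 serotonin 1 replicate 2. With the descriptions 2, 7451 and 7435 genes were called at 100, at 1 and for the difference. Replicate numbers did not pair the arrays: 14 of 40 same-numbered pairs had deviations correlated above 0.1, in 0 of 10 group pairs all of them. With the replicate block Npy1r changed by -1.58 in E46 and -2.23 in A2/12, with a difference of 0.66 (limma adjusted p = 0.00369), and no member's call changed. Each member had 1 probe set, so the choice among probe sets was not run.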
